A study of Mus musculus with 6 samples.

Results

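The 9 genes described here, Pax7, Pax3, Myf5, Myod1, Myog, Myf6, Mef2a, Mef2c and Mef2d, encode the transcription factors that carry a muscle stem cell (MuSC) from quiescence through activation to differentiation. They were taken by symbol from a table of 22081 genes, and all 9 passed the filter on low values that left 18562 genes for testing. The table holds RNA-seq of freshly isolated MuSCs from C57BL/6 mice, with 3 control and 3 Taf4asKO libraries. Taf4asKO mice carry a tamoxifen-inducible Cre recombinase driven by Pax7 (Pax7CreERT) together with 2 floxed alleles of Taf4a, now named Taf4, which encodes a subunit of the general transcription factor TFIID, and they received tamoxifen. Control mice, labelled control in one field and WT in another, were floxed littermates with or without the Pax7CreERT allele according to the study's methods. Which control library carried the allele, and whether these controls received tamoxifen, is not given in the sources used here. Both sexes were used at 8 to 20 weeks of age. Cells of limb and trunk muscle were sorted as positive for Integrin-a7, or for GFP from a Pax7-zsGreen reporter, after depletion of SCA1, CD45 and CD31 positive cells. The Taf4 level summed over the whole gene was 613, 534 and 478 normalized counts in the controls and 631, 565 and 574 in Taf4asKO libraries (adjusted p = 0.524, limma), so it did not separate the labels. The deletion removes only some exons, and a total over the gene does not check it.

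PAX7 and PAX3 are paired-box factors that specify myogenic cells, and PAX7 marks adult MuSCs in their resting state. MYF5 and MYOD, encoded by Myf5 and Myod1, are basic helix-loop-helix (bHLH) factors of myogenic determination. Myf5 transcripts are present in most quiescent MuSCs, MYOD accumulates on activation, and myogenin (Myog) and MRF4 (Myf6) act later, in differentiation and in fibres. The 4 bHLH factors bind DNA as dimers with E proteins at a short motif called the E-box, and MEF2 proteins are their partners at many muscle promoters. ID, HES and HEY proteins counteract bHLH factors.

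Because the bHLH factors bind E-boxes, the sequences before the RefSeq start sites of Myf5 and Myog, the 2 members that passed the test, are shown. Both are 150 bases read in the direction of transcription from RefSeq promoter windows (GRCm38.p6), Myf5 on the minus strand of chromosome 10 and Myog on the plus strand of chromosome 1. Capitals mark E-boxes.
Myf5, chr10:107486135-107486284: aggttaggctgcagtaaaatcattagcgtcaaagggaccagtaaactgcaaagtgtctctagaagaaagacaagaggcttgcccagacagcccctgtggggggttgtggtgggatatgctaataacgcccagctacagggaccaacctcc
Myog, chr1:134289854-134290003: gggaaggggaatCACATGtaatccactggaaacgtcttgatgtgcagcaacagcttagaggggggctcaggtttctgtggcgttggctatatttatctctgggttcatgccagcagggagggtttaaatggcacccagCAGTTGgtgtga
The E-box was searched on both strands as CANNTG in windows from 250 bases before to 50 bases after the start. The Myog window held 2 E-boxes, whose bases nearest the start lie at -133 and -7, and the Myf5 window held 0. Of 32851 promoter windows in the same table, 72.3% held at least 1 E-box. The Myf5 window held a match to TATAAA only at 21 to 26 bases after the start, and 13.6% of all windows held that motif on either strand. These are matches of letters and carry no statement on binding.

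Among the 9 factors, Myf5 and Myog fell in Taf4asKO MuSCs, and the other 7 did not pass the threshold, which asked for an adjusted p under 0.05 (limma, Benjamini-Hochberg over all 18562 genes) and a change of 1.3-fold or more, up or down. Of all genes tested, 12.6% passed that threshold, 6.71% in the lower and 5.93% in the higher direction. The median log2 fold change was -0.15 over the 9 members and 0.00 over all genes tested. For 6 of the 9 the libraries of the 2 groups did not overlap, 5 of them lower and 1 higher in Taf4asKO, beside 33% of all genes tested (16.4% lower and 16.6% higher). Deviations of replicates with the same number correlated weakly, at 0.126 to 0.235, and what the number stands for is not given in the sources used here. When the fit took that number as a block, 3 of 9 passed, beside 18.1% of all genes (8.98% lower and 9.09% higher). Without Taf4asKO replicate 2 or without Taf4asKO replicate 3, Myf5 alone passed, beside 5.25% and 5.14% of all genes. With each of the other libraries left out in turn, the share of all genes that passed was 6.72% (Taf4asKO replicate 1), 9.24% (control replicate 1), 16.6% (control replicate 2) and 11.7% (control replicate 3). The controls differed in marker levels: replicate 1 was lowest in markers of several other cell types and replicate 2 highest in fibre markers. In these bulk samples, fewer cells of a type and less RNA per cell cannot be told apart.

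**Figure D1:**
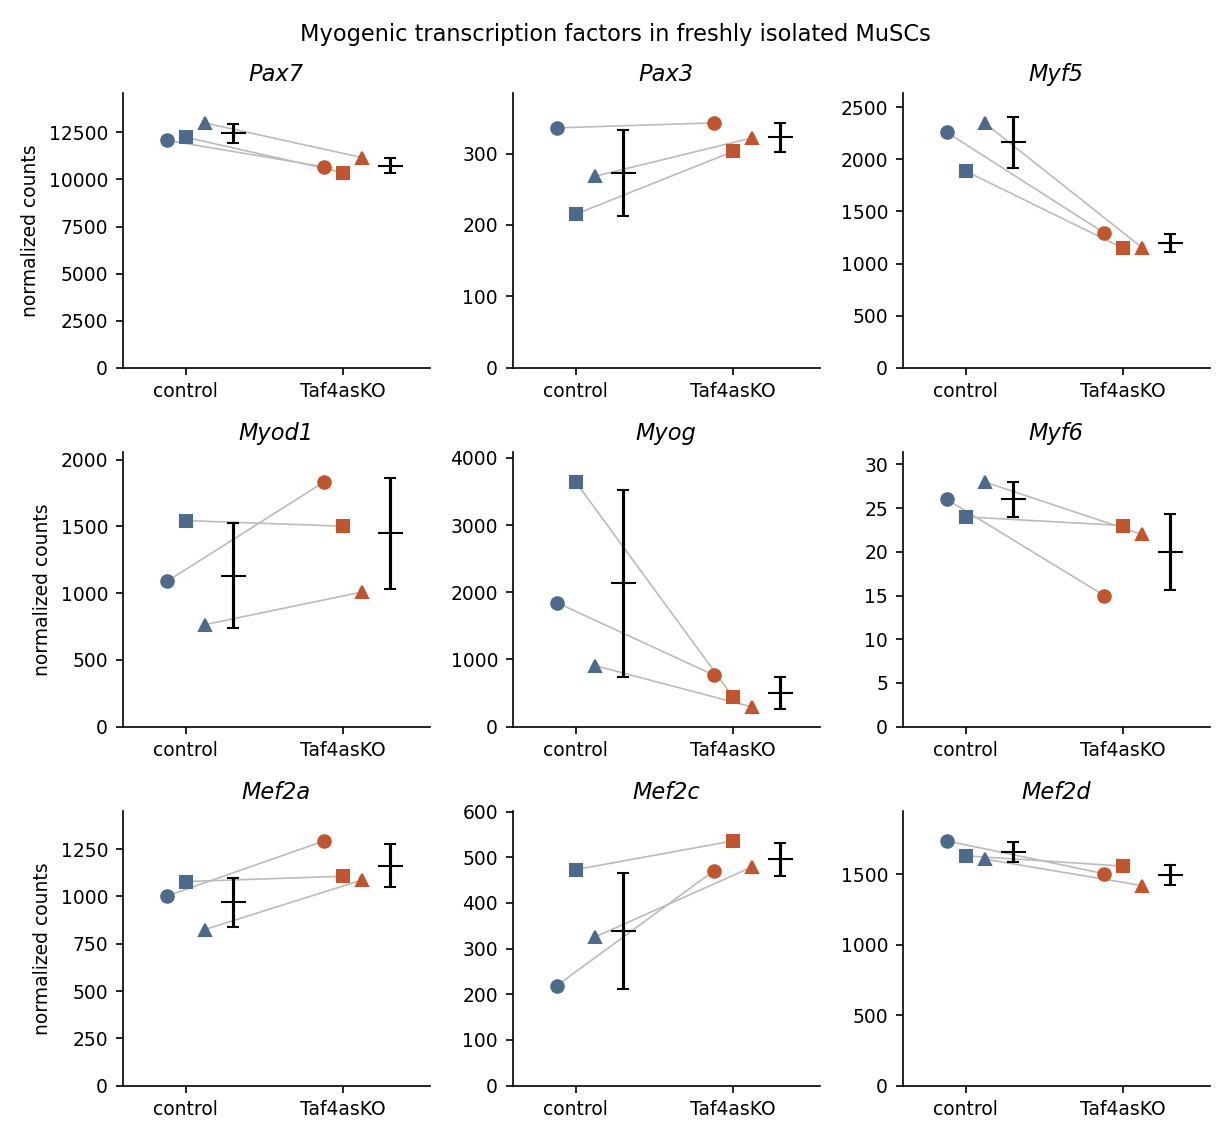
Normalized counts (vertical axes, each starting at 0) of the 9 factors in control (blue) and Taf4asKO (orange) libraries, with circles, squares and triangles for replicates 1, 2 and 3 and grey lines joining the same number; black bars give the mean ± SD of 3 libraries. The 3 Taf4asKO libraries of Myf5 lie between 1147 and 1294, below all 3 controls, whereas those of Myod1 and Pax3 overlap with the controls.

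Pax7 (ENSMUSG00000028736, chr4:139737062-139833528), the defining factor of adult MuSCs, was the most abundant of the 9. Its normalized counts, which are reads divided by a size factor of the library, were 12082, 12244 and 13007 in control libraries and 10669, 10363 and 11164 in Taf4asKO libraries. Every Taf4asKO library lay below every control library, and the mean was 86.2% of the control mean. The log2 fold change, given throughout on the log2(value + 1) scale as Taf4asKO minus control, was -0.21 ± 0.09 (SE, n = 3 and 3, adjusted p = 0.161, limma), so the difference did not pass the threshold. The Cre allele is itself driven by Pax7, and its part in the Pax7 level was not tested. Pax7 varied little between libraries of a group: 95.6% of all genes tested had a larger SD among the controls on the log2 scale.

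Pax3 (ENSMUSG00000004872, chr1:78101267-78197134), the paralog that acts in the embryonic progenitors and in MuSCs of some adult muscles, stood at 336, 215 and 268 normalized counts in the controls and 343, 303 and 322 in Taf4asKO libraries. The groups overlapped, since control replicate 1 lay within the range of the Taf4asKO libraries. Its log2 fold change was 0.26, with a 95% interval from -0.10 to 0.63, and it was 0.42 without control replicate 1 and 0.10 without control replicate 2. Per kilobase (kb) of exon, Pax3 stood at 2.04% ± 0.48 (SD, n = 3) of the sum of the pair in control and at 2.77% ± 0.16 in Taf4asKO libraries, and the ratio of Pax3 to Pax7 was higher in each Taf4asKO library than in each control.

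Myf5 (ENSMUSG00000000435, chr10:107482908-107486134), the determination factor already transcribed at rest, fell to 55.3% of the control mean. Its normalized counts were 2261, 1888 and 2351 in control and 1294, 1147 and 1153 in Taf4asKO libraries. The groups were separate, and the Taf4asKO libraries lay close together. The log2 fold change was -0.85 ± 0.11 (SE, adjusted p = 0.00134, limma) and lay between -0.95 and -0.79 when each library was left out in turn, with Myf5 past the threshold each time. The fall also held relative to the stem cell marker in the same library. The per-kb ratio of Myf5 to Pax7 was 0.53, 0.43 and 0.51 in control and 0.34, 0.31 and 0.29 in Taf4asKO libraries, with no overlap.

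Myod1 (ENSMUSG00000009471, chr7:46376474-46379099), the factor that marks MuSC activation, did not pass the threshold. It was at 1088, 1544 and 764 normalized counts in the controls and 1834, 1502 and 1009 in Taf4asKO libraries. The groups overlapped, because control replicate 2 was higher than 2 of the Taf4asKO libraries. The log2 fold change was 0.37, with a 95% interval from -0.20 to 0.95 (adjusted p = 0.378, limma), and it lay between 0.12 and 0.62 with 1 library left out. Between libraries of the same number it was 0.75, -0.04 and 0.40 for replicates 1, 2 and 3. With the replicate block the adjusted p was 0.0738 (limma), and it passed only with the block and a correction for GC content and gene length together, at a log2 fold change of 0.51 (adjusted p = 0.018, limma).

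Myog (ENSMUSG00000026459, chr1:134289989-134292548), the factor of differentiating myoblasts, fell to 23.4% of the control mean, the largest difference among the 9. Its normalized counts were 1846, 3642 and 910 in control and 765, 441 and 293 in Taf4asKO libraries. Every Taf4asKO library lay below every control library, although the highest control was 4.00 times the lowest and only 4.67% of all genes tested varied more among the controls. The log2 fold change was -1.98 ± 0.45 (SE, adjusted p = 0.0188, limma), and with the replicate block the adjusted p was 0.000366. Without Taf4asKO replicate 2 it was -1.95 (adjusted p = 0.0743, limma), and without Taf4asKO replicate 3 it was -1.65 (adjusted p = 0.0788, limma), so the call was lost in both cases while the direction stayed. Control replicate 2, the library highest in Myog, was also highest in the summed level of 12 fibre markers, at 6556 normalized counts against 2385 and 3000 in the other controls and 2947 to 3588 in Taf4asKO libraries. Without that library the log2 fold change of Myog was -1.48 (adjusted p = 0.0389, limma).

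Myf6 (ENSMUSG00000035923, chr10:107492853-107494737), which is mainly expressed in mature fibres, had the lowest mean per kb of exon among the 9. It was at 26, 24 and 28 normalized counts in the controls and 15, 23 and 22 in Taf4asKO libraries. The groups did not overlap, but control replicate 2 and Taf4asKO replicate 2 were a single count apart, and the log2 fold change of -0.38 had a 95% interval from -1.05 to 0.29 and was -0.20 without Taf4asKO replicate 1.

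The bHLH family differed in composition between the groups. Myod1 made up 19.6% ± 0.57 (SD, n = 3) of the summed per-kb level of the 4 genes in control libraries, and 46.3%, 48.3% and 41.4% in Taf4asKO libraries. The share was nearly constant within control although Myod1 and Myog themselves varied widely there. Myog made up 42.8% ± 15.0 (SD, n = 3) in control and 18.9% ± 4.6 in Taf4asKO libraries. The share of Myf5 was 36.9% ± 15.2 and 34.8% ± 6.8, with overlap, and that of Myf6 stayed under 1.4% in every library. The per-kb ratio of Myog to Myod1 was 2.11, 2.94 and 1.48 in control and 0.52, 0.37 and 0.36 in Taf4asKO libraries. The ratio of Myf5 to Myod1 was 1.86, 1.09 and 2.75 in control and 0.63, 0.68 and 1.02 in Taf4asKO libraries. Both ratios separated the groups, but the ratios of Myod1 to Pax7, Myog to Pax7 and Myog to Myf5 did not. The summed per-kb level of the family was 3096 ± 1021 in control and 1703 ± 412 in Taf4asKO libraries. Ratios and shares were compared without a test.

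**Figure D2:**
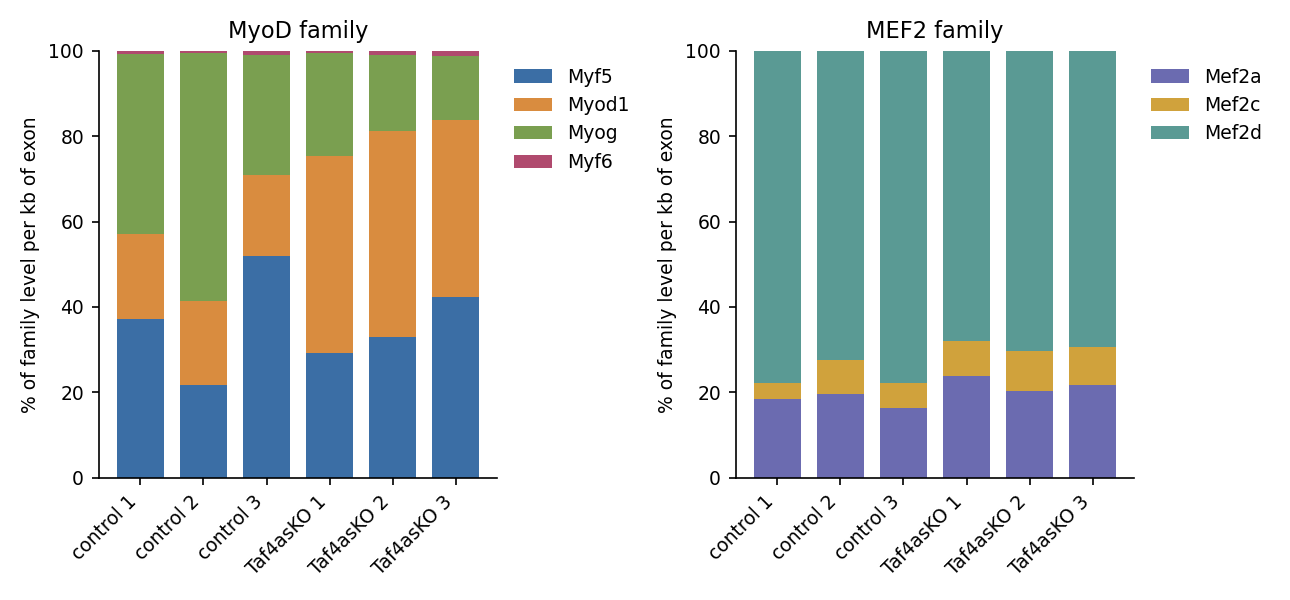
Share of each member in the summed level per kb of exon (vertical axes, %, from 0 to 100) of the MyoD family (left) and the MEF2 family (right), with 1 bar for each of the 6 libraries. The Myod1 band has a mean of 19.6% in the controls and covers 41.4% to 48.3% in Taf4asKO libraries.

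The MEF2 factors are MADS-box proteins that cooperate with the bHLH factors. Mef2c (ENSMUSG00000005583, chr13:83504034-83667080) was at 219, 473 and 325 normalized counts in the controls and 471, 536 and 479 in Taf4asKO libraries. The groups overlapped by a narrow margin, at 473 in control replicate 2 and 471 in Taf4asKO replicate 1. The log2 fold change was 0.61 ± 0.23 (SE, adjusted p = 0.109, limma), which missed the threshold. With the replicate block Mef2c passed (adjusted p = 0.0199, limma), and it also passed without control replicate 2 (log2 fold change 0.89, adjusted p = 0.0112, limma). It did not pass with the block and a correction for GC content and gene length together, at 0.47 (adjusted p = 0.0608, limma). Without control replicate 1, the library lowest in Mef2c, the log2 fold change was 0.33 (adjusted p = 0.259, limma). That library was also lowest in markers of endothelial, smooth muscle, Schwann and tendon cells, as given with the marker lists, and MEF2C is known from endothelial and smooth muscle cells as well. The sort depleted cells positive for CD31, an endothelial surface protein, and the part of either cell type in the Mef2c level was not tested.

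Mef2a (ENSMUSG00000030557, chr7:67231163-67372858), a widely expressed member, was at 1002, 1079 and 825 normalized counts in the controls and 1294, 1107 and 1087 in Taf4asKO libraries. It was the 1 member that was higher in every Taf4asKO library, by a log2 fold change of 0.27 with a 95% interval from -0.01 to 0.54 (adjusted p = 0.187, limma). That value was 0.12 after correction for GC content and gene length and 0.16 without control replicate 3. Mef2d (ENSMUSG00000001419, chr3:88142372-88172086), which has a muscle isoform that activates late muscle genes, was at 1736, 1630 and 1607 in control and 1503, 1557 and 1419 in Taf4asKO libraries. It was lower in every Taf4asKO library, by a log2 fold change of -0.15 with a 95% interval from -0.35 to 0.05. The summed per-kb level of the family was 365 ± 17 (SD, n = 3) in control and 360 ± 16 in Taf4asKO libraries. Within it Mef2d had 76.0% ± 3.1 in control and 69.3% ± 1.2 in Taf4asKO libraries, Mef2a had 18.1% ± 1.7 and 22.0% ± 1.8, and Mef2c had 5.9% ± 2.1 and 8.8% ± 0.57. Mef2a overlaps Lysmd4, and Mef2d overlaps 1700113A16Rik, each on the opposite strand, so their values are less certain where counting ignored strand.

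**Figure D3:**
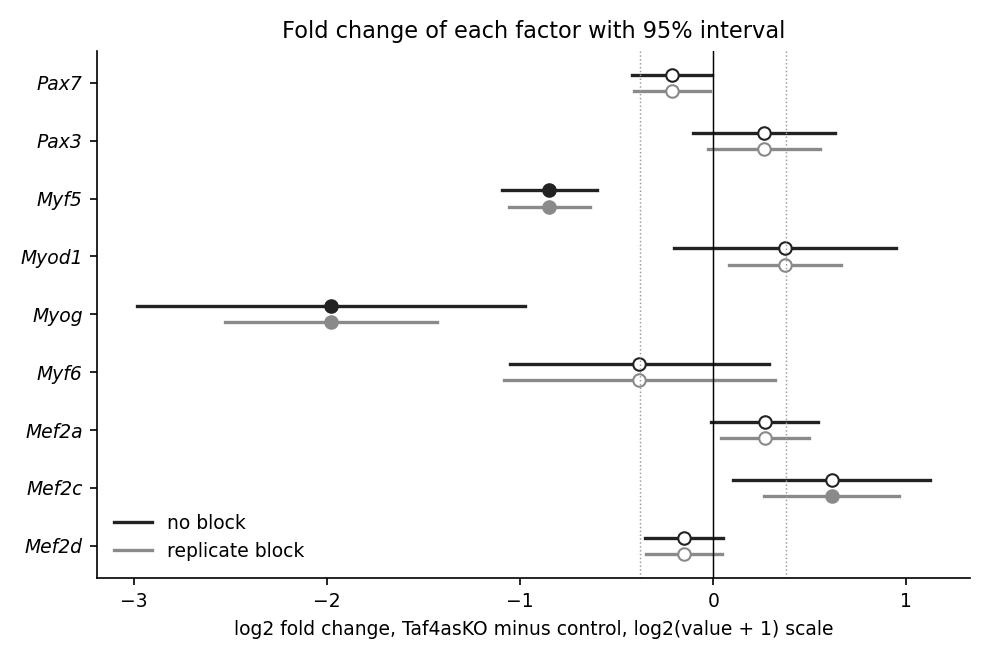
Log2 fold change of each factor (horizontal axis, Taf4asKO minus control, log2(value + 1) scale) with its 95% interval, without (black) and with (grey) the replicate block; filled points passed the threshold, and dotted lines mark the fold limit of 1.3. Myf5 and Myog passed in both fits, Mef2c with the block, and the interval of Myog is the widest without the block.

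Ordered by per-kb level, the factors stood in the same sequence in both groups except for Myog, Myf5 and Myod1. The order between genes depends on the exon lengths used. In control libraries Pax7 was highest at 2124 ± 84 (SD, n = 3), which placed it 95th among the genes tested, followed by Myog at 1427 ± 929, Myf5 at 1040 ± 118 and Myod1 at 608 ± 211. The controls of Myog, from 609 to 2436 per kb, overlapped those of Pax7, Myf5 and Myod1, so its place among them is not fixed by 3 libraries. Mef2d followed at 277 ± 11, Mef2a at 66.0 ± 8.9, Pax3 at 44.1 ± 9.8, and then Mef2c at 21.6 ± 8.1 and Myf6 at 20.6 ± 1.6, which overlapped. In Taf4asKO libraries Pax7 stood at 1831 ± 69, Myod1 at 778 ± 223 and Myf5 at 575 ± 40, of which the last 2 overlapped. Myog stood at 334 ± 161 there and overlapped with Mef2d at 249 ± 12. Mef2a, Pax3, Mef2c and Myf6 followed at 79.2, 52.2, 31.5 and 15.8 per kb, with no overlap between neighbours.

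Markers of other cell types moved with the labels and within the controls. Of 12 MuSC markers, Pax7 and Myf5 among them, Myf5, Fgfr4, Cdh15 and Itga7 fell and Vcam1 and Sdc4 rose. Of all genes tested, 6.71% fell and 5.93% rose. With the block 5 of the markers fell and 2 rose, beside 8.98% and 9.09% of all genes. The summed level of the 12 markers was 52027 to 54283 normalized counts in the controls and 49597 to 52464 in Taf4asKO libraries. Calcr, a receptor of quiescent MuSCs, was at 1748, 1190 and 1826 in control and 1593, 1780 and 1538 in Taf4asKO libraries. The 8 Schwann cell markers summed to 1700, 4010 and 3139 in control and 4787 to 5813 in Taf4asKO libraries, and 4 of them rose, or 7 with the block, beside 5.93% and 9.09% of all genes. The 8 endothelial markers, of which 3 passed and only with the block, summed to 922 to 1348 in control and 1477 to 1855 in Taf4asKO libraries. The 8 smooth muscle and pericyte markers summed to 9865 to 15576 and to 15789 to 18672, with 2 that rose, or 6 with the block. The 6 tenocyte markers ranged from 2055 in control replicate 1 to 14220 in control replicate 3 and from 7109 to 16299 in Taf4asKO libraries, and 4 of them passed, again only with the block. The 12 fibro-adipogenic markers summed to 69935 to 99969 and to 58697 to 83164, with 10 of them above 0 in log2 fold change but Col3a1 and Dpt lower past the threshold and Gsn higher. With the block 8 of them were higher past the threshold. Beside all these marker lists, 6.71% of all genes were lower and 5.93% higher past the threshold, or 8.98% and 9.09% with the block. Of 8 immune markers 3 were in the table, and they did not move together: Lyz2 was at 94, 357 and 320 in control and 465, 729 and 483 in Taf4asKO libraries, while the log2 fold change was -0.03 for Cd68 and -0.56 for Csf1r. Their sums were 422 to 538 and 666 to 924. Ptprc, which encodes the CD45 used in the sort, was not among them. Without control replicate 1, lowest in the endothelial, smooth muscle, Schwann and tenocyte sums, 2 of the 9 factors passed the threshold, beside 9.24% of all genes in that fit, Myf5 at -0.82 (adjusted p = 0.0044, limma) and Myog at -1.97 (adjusted p = 0.0377, limma).

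Genes whose profile over the 6 libraries was nearest to that of Myf5, Myog and Mef2c were sought among 10566 genes that averaged 50 normalized counts or more, by the root mean square (RMS) difference of centred log2 values. Nearest to Myf5 were Ehbp1l1 (RMS 0.077), AC122354.1 (0.082) and Fgfr4 (0.087), which encodes a fibroblast growth factor receptor of the muscle lineage. Fgfr4 was at 9821, 8148 and 8832 normalized counts in the controls and 4816, 4686 and 4675 in Taf4asKO libraries. Nearest to Myog were Chrng (RMS 0.183), which encodes the embryonic gamma subunit of the acetylcholine receptor, Actc1 (0.204), which encodes cardiac alpha-actin, and Klhl41 (0.211), which encodes a sarcomere-associated protein. Actc1 was at 802, 2228 and 427 normalized counts in the controls and 320, 191 and 115 in Taf4asKO libraries, so it shared with Myog the high value of control replicate 2. Nearest to Mef2c were Hist1h4a (0.076), Dtna (0.079) and Tfb2m (0.087), all of low level. These distances describe 6 libraries that share the same 2 groups.

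Among 38 tested genes of myogenic commitment and differentiation, 11 fell and 2 rose, together 34.2% of the list, beside 12.6% of all genes tested, and the median log2 fold change was -0.30. With the replicate block 14 fell and 5 rose, beside 8.98% and 9.09% of all genes. This list and those below were chosen with earlier results of these data known, so their shares are no independent excess. Mymk, which encodes the membrane activator of myoblast fusion, showed the largest fall in the list. It was at 241, 476 and 129 normalized counts in the controls and 47, 40 and 19 in Taf4asKO libraries, a log2 fold change of -2.86 (adjusted p = 0.0035, limma). Its partner in fusion, Mymx, was too low to test, at 8, 14 and 2 in control and 3, 1 and 0 in Taf4asKO libraries. Actc1 (log2 fold change -2.25), Klhl41 (-2.20), the acetylcholine receptor subunit gene Chrnd (-1.85), the slow troponin gene Tnnt1 (-1.80) and Cdkn1c (-1.69), which encodes the cell cycle inhibitor p57, fell as well. Mymk, Klhl41 and Tnnt1 passed with any 1 library left out, but Actc1 passed in 4, Cdkn1c in 2 and Chrnd in 1 of those 6 fits. Control replicate 2 was the highest library for all 6 genes. Without it the log2 fold change was -2.38 for Mymk, -1.61 for Actc1, -1.74 for Klhl41, -1.56 for Tnnt1 and -1.07 for Cdkn1c, all past the threshold, and -1.27 for Chrnd, which did not pass (adjusted p = 0.0625, limma). Named after their values were seen, the receptor genes Chrna1 (-1.49) and Chrnb1 (-1.23) and their scaffold Rapsn (-0.79) fell too, as did Atp2a1 (-1.58) and Cdh15 (-0.52).

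The differentiation list did not move as 1 block. Its further genes Cdkn1a, Myom1, Ttn, Acta1, Neb and Myh8 were named after their values were seen. Cdkn1a, which encodes the cell cycle inhibitor p21 and is also a target of p53, rose by 1.54 on the log2 scale. It was at 1058, 589 and 660 in the controls and 3330, 1797 and 1700 in Taf4asKO libraries, so every Taf4asKO library was higher. Myom1, which encodes a protein of the sarcomeric M-band, rose by 0.58. Cdkn1a passed with any 1 library left out, and Myom1 and Cdh15 passed in 3 of those 6 fits. Not every sarcomere gene moved with Actc1 and Tnnt1: Ttn had a log2 fold change of 0.08, Acta1 of 0.33 and Neb of 0.52, and these 3 did not pass. Myh8, encoding perinatal myosin, was at 45, 306 and 50 in control and 383, 165 and 121 in Taf4asKO libraries, and the groups overlapped. The list had 8 calls without Taf4asKO replicate 2 and 20 without control replicate 2, beside 5.25% and 16.6% of all genes in those fits.

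**Figure D4:**
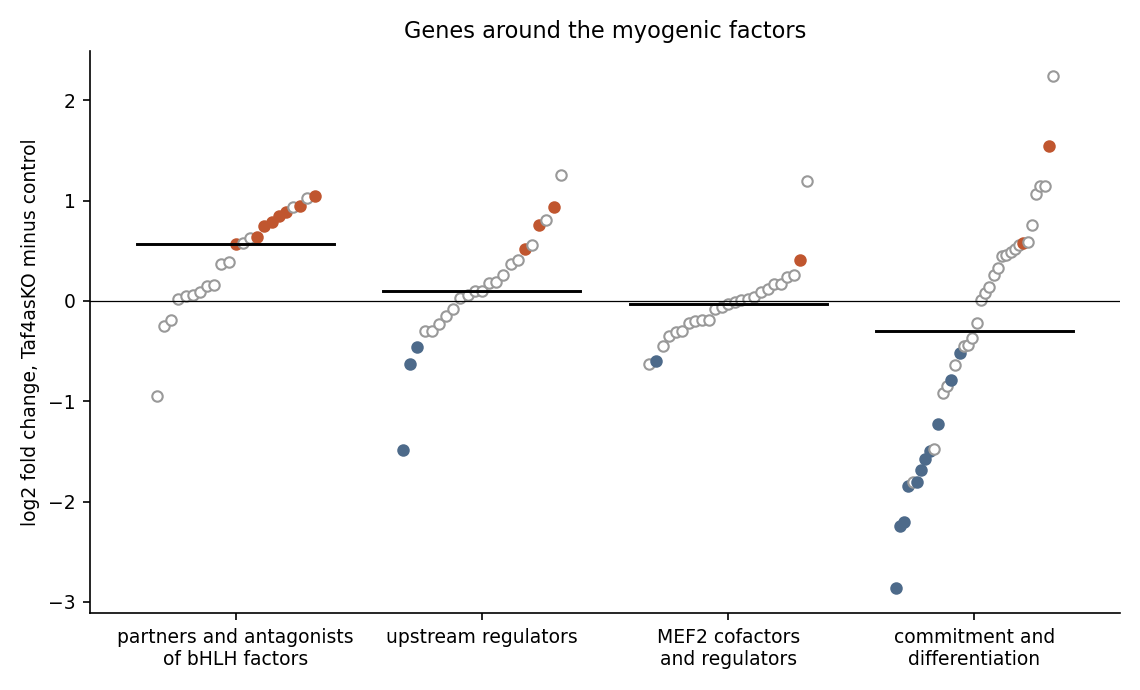
Log2 fold change (vertical axis, Taf4asKO minus control) of every tested gene of 4 lists, with 1 point per gene in order of size; filled points passed the threshold, blue lower and orange higher, and black lines give the medians. All 8 filled points among the partners and antagonists lie above 0, and 11 of 13 among the commitment and differentiation genes lie below it.

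Among 23 tested partners and antagonists of the bHLH factors, 8 rose and the other 15 did not pass, with 34.8% of the list past the threshold, beside 12.6% of all genes tested, and a median log2 fold change of 0.57. Over all genes 5.93% rose. With the replicate block 9 of the list rose, beside 9.09% of all genes, and 1, Mdfi, named after its values were seen, which encodes an inhibitor of MyoD family factors, fell. Hes1, a Notch target, was at 860, 1055 and 1370 normalized counts in the controls and 1980, 2015 and 2235 in Taf4asKO libraries, a log2 fold change of 0.95 (adjusted p = 0.0039, limma). Id3 was at 1826, 1714 and 2312 in control and 4404, 3247 and 3184 in Taf4asKO libraries, a log2 fold change of 0.88 (adjusted p = 0.00496, limma). In both genes the groups were separate. Id4 (0.84), Hey1 (0.78), Bhlhe41 (0.75) and Msc (0.63), which encodes the bHLH repressor musculin, rose by less. Named after their values were seen, Heyl (0.57) and the low-level Tcf15 (1.05), which encodes the bHLH factor paraxis of the early mesoderm, rose too. Hes1, Id3 and Hey1 passed with any 1 library left out. Of those 6 fits, Id4 and Msc passed in 4 and Bhlhe41 in 3. Heyl and Tcf15 passed in only 1 of them, the one without control replicate 2. The summed Schwann, smooth muscle and endothelial markers were also higher in every Taf4asKO library than in every control, at 4787 to 5813, 15789 to 18672 and 1477 to 1855 against 1700 to 4010, 9865 to 15576 and 922 to 1348, and their part in these rises was not tested.

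The E protein genes, whose products are the direct partners of MYOD, did not pass the threshold. Tcf3 had a log2 fold change of -0.25 (adjusted p = 0.129, limma), Tcf12 of -0.19 and Tcf4 of 0.16. Id1 was at 733, 481 and 667 normalized counts in the controls and 765, 585 and 578 in Taf4asKO libraries, with overlap. Id2 was at 441, 439 and 441 in control and 631, 533 and 548 in Taf4asKO libraries, without overlap, at a log2 fold change of 0.37 (adjusted p = 0.0518, limma). Without Taf4asKO replicates 1, 2 and 3 in turn, 4, 3 and 4 genes of the list passed, beside 6.72%, 5.25% and 5.14% of all genes.

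Of 23 tested regulators upstream of the lineage genes, 3 fell and 3 rose, 26.1% of the list beside 12.6% of all genes tested. The median log2 fold change was 0.10. With the replicate block 3 fell and 5 rose, beside 8.98% and 9.09% of all genes. Pitx3, a homeobox factor of differentiating myoblasts, fell by 1.48 on the log2 scale (adjusted p = 0.000836, limma). It was at 293, 366 and 249 in control and 115, 111 and 94 in Taf4asKO libraries, and the groups were separate. Srf, the serum response factor (-0.63), and Eya4 (-0.46) fell, while Meox2 (0.94), Eya1 (0.75) and Foxo3 (0.52) rose. Eya1 and Eya4 encode transcriptional coactivators. Pitx3 passed with any 1 library left out, Foxo3 in 5, Srf in 4, Eya1 and Meox2 in 3 and Eya4 in 1 of those 6 fits. Six4 had a log2 fold change of -0.30 (adjusted p = 0.17, limma). Leaving out Taf4asKO replicates 1, 2 and 3 in turn gave 3, 2 and 1 calls in the list, where 6.72%, 5.25% and 5.14% of all genes passed.

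Of 25 tested MEF2 cofactors and regulators, 1 fell and 1 rose, 8% of the list beside 12.6% of all genes tested. The median log2 fold change was -0.04. With the replicate block 1 fell and 2 rose, beside 8.98% and 9.09% of all genes. Mapk7, which encodes the kinase ERK5 that phosphorylates MEF2 proteins, was at 404, 468 and 360 normalized counts in the controls and 305, 264 and 240 in Taf4asKO libraries, a log2 fold change of -0.60 (adjusted p = 0.0222, limma). Vgll3, which encodes a cofactor of TEAD factors, rose by 0.40 (adjusted p = 0.0435, limma). With 1 library left out, Mapk7 passed in 4 and Vgll3 in 1 of 6 fits. The list had 1, 0 and 0 calls without Taf4asKO replicates 1, 2 and 3, beside 6.72%, 5.25% and 5.14% of all genes. It had 1 call without control replicate 1 and 3 without control replicate 2, beside 9.24% and 16.6%. Of the 29 genes of the 4 lists that passed the threshold, 10 overlap in position with a gene of the other strand, and the doubt about strand extends to them: Pitx3, Mapk7, Atp2a1, Myom1, Cdkn1a, Cdkn1c, Rapsn, Id4, Msc and Bhlhe41. Of the 29, 12 passed with any 1 library left out.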

How the data were processed

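Total RNA of 90000 sorted MuSCs per sample was extracted, and 10 ng entered a stranded low-input library kit. The authors trimmed reads with Trimmomatic 0.39, aligned them to mm10 with STAR 2.6.0c, removed multi-mapping reads, counted exons with featureCounts 1.6.0 without reads shared by several genes, and normalized with DESeq2 1.14.1. The deposited values are a score: normalized counts rounded to whole numbers, with 0 value columns unmapped. Use of strand in counting is not given in the sources used here. Estimated from how unevenly the whole numbers were used (gaps or excess at regular steps), depth was 10587324 to 17626894 reads per library, and normalized totals were 12338676 to 14551732.

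Groups came from the genotype label. The labels do not tie libraries to animals, so p-values measure the spread between libraries. Genes with a mean of at least 5 were tested with limma 3.58.1 (R 4.3.3; eBayes with trend, two-sided, no covariate) on log2(value + 1), a scale that shrinks changes of low genes. The threshold was an adjusted p under 0.05 (Benjamini-Hochberg) with at least 1.3-fold change. A count model planned for raw counts did not suit these values and was left out. Deviations from the group means of same-numbered libraries correlated at 0.235, 0.126 and 0.150, over 0.1 in all 3 pairs, so the replicate number, taken from the sample titles, was used as a block in an alternative fit. The test was checked on simulated data, where it missed most of the smaller changes. Not passing therefore does not show that a gene was unchanged. Levels per kb used GENCODE M21 exon lengths (mm10), and gene positions are those of the table. Windows of 6 members were matched in the RefSeq promoter table; sequences are RefSeq's.

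The 9 members and the lists were chosen with earlier results of these data known. Named genes were the members, Taf4, up to 6 genes per list past the threshold with a mean of at least 50, by size of change, those with a stated tie to a member (E proteins, Id1 to Id3, Mymk, Mymx and Six4; 1 further gene is not reported here), and the 3 nearest profiles of each member that passed with or without the block. Alternatives covered scaling, pseudocount, filter, thresholds, limma-voom on estimated reads, the replicate block, GC and length correction, and leaving out each library.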

Additional observations from a re-analysis of the deposited data

How the results depend on the processing

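Over 19 alternatives, the log2 fold changes of the 9 members kept their direction in every fit that gave a value, and Myf6 was filtered out in 1. Myf5 passed in 18, all but the fold limit of 2, and Myog in 16. At a fold limit of 2, 520 genes fell and 330 rose, 1 member passed, and the lists of partners, upstream regulators and MEF2 cofactors had 1, 1 and 0 calls. At an adjusted p under 0.01, 545 genes fell and 331 rose, 1 member passed, and those lists had 4, 3 and 0 calls, with 8 in the differentiation list. With the replicate block 1688 genes rose instead of 1101. With the block plus GC and length correction, 1658 genes fell and 1537 rose, and 10 upstream regulators and 20 differentiation genes passed. The block changed the call of 1 member, Mef2c, and of no other member. The MEF2 list had 1 call under upper-quartile scaling, under total-count scaling, also when mitochondrial genes, ribosomal protein genes and the 100 genes of highest level were left out, and under GC and length correction. With 1 library left out, 595 to 1489 genes fell, 350 to 1607 rose, 1 to 3 members passed, and the lists had 3 to 8 (partners), 1 to 6 (upstream), 0 to 3 (MEF2) and 8 to 20 (differentiation) calls. Fewer libraries, stricter limits and estimated covariates enter these fits by construction; further causes were not tested. Myf6 and Mymx stood at 28 normalized counts or fewer in every library.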
